A study of Mus musculus with 15 samples.

Results

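The trypsinogen gene cluster of mouse chromosome 6 was followed through 15 RNA sequencing libraries of embryonic pancreas. It comprised 8 of the 25292 genes of the count table, namely Prss1, Prss2, Prss3, Try4, Try5, Try10, 1810009J06Rik and 2210010C04Rik. These genes were picked by symbol, through the GENCODE annotation, with the read counts of the 5 groups already known. The fold changes and p-values below therefore describe the size of each difference against the spread between replicates, and they are not independent evidence of a pattern in the family. All mice were labelled C57/Bl6J, and the 5 groups held 3 libraries each, made from up to 3 pooled organs or explants. Fresh pancreata of 14.5 days post coitum (dpc) were wild-type (wt) or S1pr2 null. The null allele carries a Neo cassette in exon 1 of S1pr2, which encodes a receptor for the signalling lipid sphingosine-1-phosphate (S1p). The other libraries came from wild-type explants of 14.5 dpc, for which the methods describe dorsal buds, after 2 days at an air-liquid interface in serum-free medium. They received no antagonist (control), 15 μM JTE013, an antagonist of S1pr2 (JTE), or 15 μM JTE013 together with 50 ng/ml of connective tissue growth factor (JTE + CTGF).

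Trypsinogens are the inactive precursors of trypsin, the protease that acinar cells of the pancreas secrete into the gut. Enteropeptidase cuts a short activation peptide behind its run of aspartates and a lysine, and the trypsin so made cuts further trypsinogen and the other pancreatic zymogens. The genes lie in tandem copies at the T cell receptor beta locus. Acinar differentiation, which the study examined around the secondary transition, brings these genes on.

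In mm10 the 8 genes spanned 560 kb, from 1810009J06Rik (chr6:40964772-40968427, plus strand, 5 exons) to Prss2 (chr6:41521787-41525079, plus strand, 5 exons). 2210010C04Rik followed the former at chr6:41030268-41035509 on the minus strand. A gap of 267 kb, which holds variable segments of the T cell receptor beta gene, separated it from the other 6 genes. These were Try4 (chr6:41302269-41305532, plus), Try5 (chr6:41311233-41316841, minus, 7 exons in the annotation), Try10 (chr6:41354105-41357944, plus), Prss3 (chr6:41373795-41377678, minus), Prss1 (chr6:41458932-41463786, plus) and Prss2.

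The coding stretch around the activation site shows how alike the copies are, and it is printed in coding orientation, 5′ to 3′. Capitals mark the aspartate codons and the lysine codon that enteropeptidase reads, and the letters that follow encode the first residues of trypsin. In mm10 the stretch lay at chr6:41461186-41461221 in Prss1. Try4 and Try5 had the same letters as Prss1 here.
Prss1: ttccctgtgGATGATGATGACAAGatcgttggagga
Prss2: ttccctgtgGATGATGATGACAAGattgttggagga
Prss3: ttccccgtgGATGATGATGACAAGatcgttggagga
Try10: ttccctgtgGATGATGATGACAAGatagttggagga
2210010C04Rik: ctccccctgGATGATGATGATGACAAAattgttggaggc
1810009J06Rik: gctaacagtGATGACAAGattgttggaggc
Prss1, Prss2, Prss3, Try4, Try5 and Try10 carried 4 aspartate codons, 2210010C04Rik carried 5 and 1810009J06Rik carried 2. The first 6 encode 246 residues and the other two 247. Over the 28 pairs of members, coding identity ran from 70.5% (Prss3 with 1810009J06Rik) to 97.4% (Try4 with Try5), with a median of 89.1%. Prss1 and Prss3 were 96.3% identical, and Prss2 was 88.6% to 91.7% identical with its 5 nearest relatives.

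This likeness limits the measurement, since only reads that align to 1 place were counted and near-identical copies lose reads. Of the 50-base words in the reference transcripts of each gene, 81.5% of those of 1810009J06Rik also occurred at another gene, all of them at Gm2663. The share was 66.1% for Prss3 (65.1% with Gm10334), 65.6% for Try4, 54.9% for Prss1, 47.6% for Try5, 40.8% for Try10, 7.8% for Prss2 and 0.0% for 2210010C04Rik. With 100-base words it was 67.6%, 45.0%, 30.2%, 21.8%, 22.5%, 11.6%, 0.0% and 0.0% in the same order. The length of the reads was not given in the sources used here, so the loss itself is unknown. Levels of different members are therefore uncertain against each other, most for 1810009J06Rik, Prss3 and Try4, and least for Prss2 and 2210010C04Rik. Comparisons between groups are made within 1 gene.

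**Figure D1:**
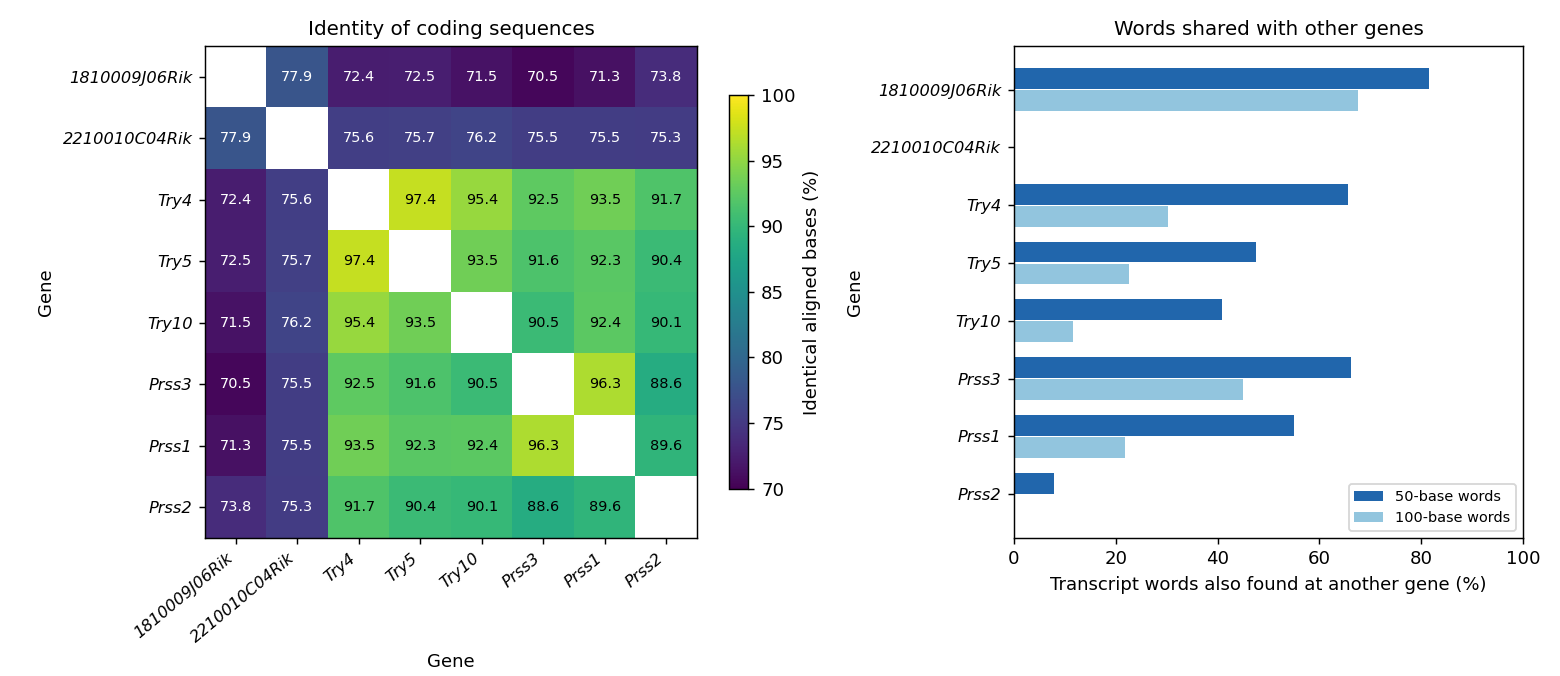
Left, percent identity of the aligned coding bases for every pair of the 8 genes. Right, percent of the 50-base and 100-base transcript words of each gene that also occur at another gene. Try4 and Try5 are the closest pair at 97.4%, and 1810009J06Rik shares the most words at 81.5%.

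RefSeq promoters (GRCm38.p6) were at hand for 5 of the 8 genes, namely Prss1, Prss2, Prss3, Try4 and 2210010C04Rik. The 150 bases before the start of Prss1 and 2210010C04Rik, which fell alike with JTE, and of Prss2, which did not fall with them, are printed 5′ to 3′ on the strand of each gene. Capitals mark the letters CANNTG of the E box, TGGGAA, which Rbpj and Rbpjl bind, and the letters TATAAA where they fall wholly inside the window, on either strand. The windows were chr6:41458780-41458929 (plus), chr6:41035510-41035659 (minus) and chr6:41521626-41521775 (plus).
Prss1: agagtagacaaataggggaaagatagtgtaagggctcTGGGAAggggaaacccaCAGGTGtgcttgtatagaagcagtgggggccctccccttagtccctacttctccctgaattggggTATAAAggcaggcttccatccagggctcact
2210010C04Rik: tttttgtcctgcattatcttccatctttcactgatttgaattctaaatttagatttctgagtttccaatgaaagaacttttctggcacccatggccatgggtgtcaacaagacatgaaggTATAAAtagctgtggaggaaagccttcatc
Prss2: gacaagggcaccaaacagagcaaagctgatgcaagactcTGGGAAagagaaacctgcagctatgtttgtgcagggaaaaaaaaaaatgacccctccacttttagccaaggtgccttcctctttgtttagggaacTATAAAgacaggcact
Within 250 bases before the start, all 5 promoters held CANNTG, which 66.2% of all 32851 promoters hold, and TATAAA, which 12.4% hold. TGGGAA was found in Prss1, Prss2 and, on the opposite strand, 2210010C04Rik, against 21.6% of all promoters. AAGGTCA, letters bound by Nr5a2, was found in Prss1, against 4.1% of all promoters. Both strands were searched, and matches of different motifs did not overlap in these 5 promoters. These are matches of letters and no measure of binding.

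The libraries held 11402804 to 13828737 counted reads, and 16245 genes, the 8 members included, carried enough reads to be tested with edgeR. The biological coefficient of variation was 7.3%. In the libraries labelled S1pr2 null the count of S1pr2 itself ran from 100.7 to 116.2 CPM (counts per 1000000 reads of effective library size), above the 60.7 to 61.6 of wt, so results for that group rest on its label. Whether the reads counted lie outside the disrupted part was not tested. Wt library 2 was the highest of its group for Prss1, Prss3, Try10, Try4 and Try5, and control library 3 and JTE library 3 were the lowest of theirs for 7 and 8 of the 8 members. Results that these libraries decide are given with and without them.

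The summed level of the 8 genes, in reads per kilobase of exon and 1000000 reads of effective library size (RPKM), was 76.0 ± 14.9 (SD, n = 3) in wt pancreata and 15.4 ± 2.18 in the libraries labelled S1pr2 null. After culture it was 3353 ± 870 in control, 2991 ± 1113 in JTE and 5492 ± 934 in JTE + CTGF explants. The mean was thus 4.94 times higher in wt than in the null group, 44.1 times higher in control explants than in wt, and 1.84 times higher in JTE + CTGF than in JTE explants. Control and JTE explants overlapped in the sum, with 2350 to 3896 and 1819 to 4034. The family took 0.0072% of the reads in wt, 0.00142% in the null group and 0.299%, 0.250% and 0.459% in the cultured groups. In whole tissue, fewer acinar cells and less RNA per cell cannot be told apart.

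The members differed in level, which RPKM allows to be compared within the limits of the shared words. In wt pancreata Prss2 stood first with 33.5 ± 1.66 RPKM (SD, n = 3), above Try5 (15.9 ± 3.62) in every library. Try10 (11.6 ± 6.39), Prss1 (8.12 ± 5.27), Prss3 (3.97 ± 1.37) and 2210010C04Rik (2.48 ± 0.67) followed, each overlapping its neighbour, and Try4 was lowest of those with reads (0.41 ± 0.31). In control explants the order was Try5 (919 ± 150), Prss2 (722 ± 115), Prss1 (654 ± 287), Try10 (491 ± 137), Prss3 (300.0 ± 135) and 2210010C04Rik (193 ± 38.7), where neighbours again overlapped. Try4 (63.9 ± 17.5) and 1810009J06Rik (9.74 ± 2.04) lay apart below them. These orders depend on the length used. With length counted only over words found at 1 gene, Prss2 lay below Try5 in wt library 2. In control explants Prss2 then came after Prss1, Prss3 and Try10, and Try4 was no longer apart from 2210010C04Rik. In JTE + CTGF explants Try5 (3810 ± 793), Prss2 (1241 ± 101) and Try10 (203 ± 33.5) were apart from each other and from the rest, whereas Try4 (69.5 ± 13.9), Prss1 (66.3 ± 11.01), 2210010C04Rik (58.5 ± 10.1) and Prss3 (42.6 ± 10.98) overlapped.

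**Figure D2:**
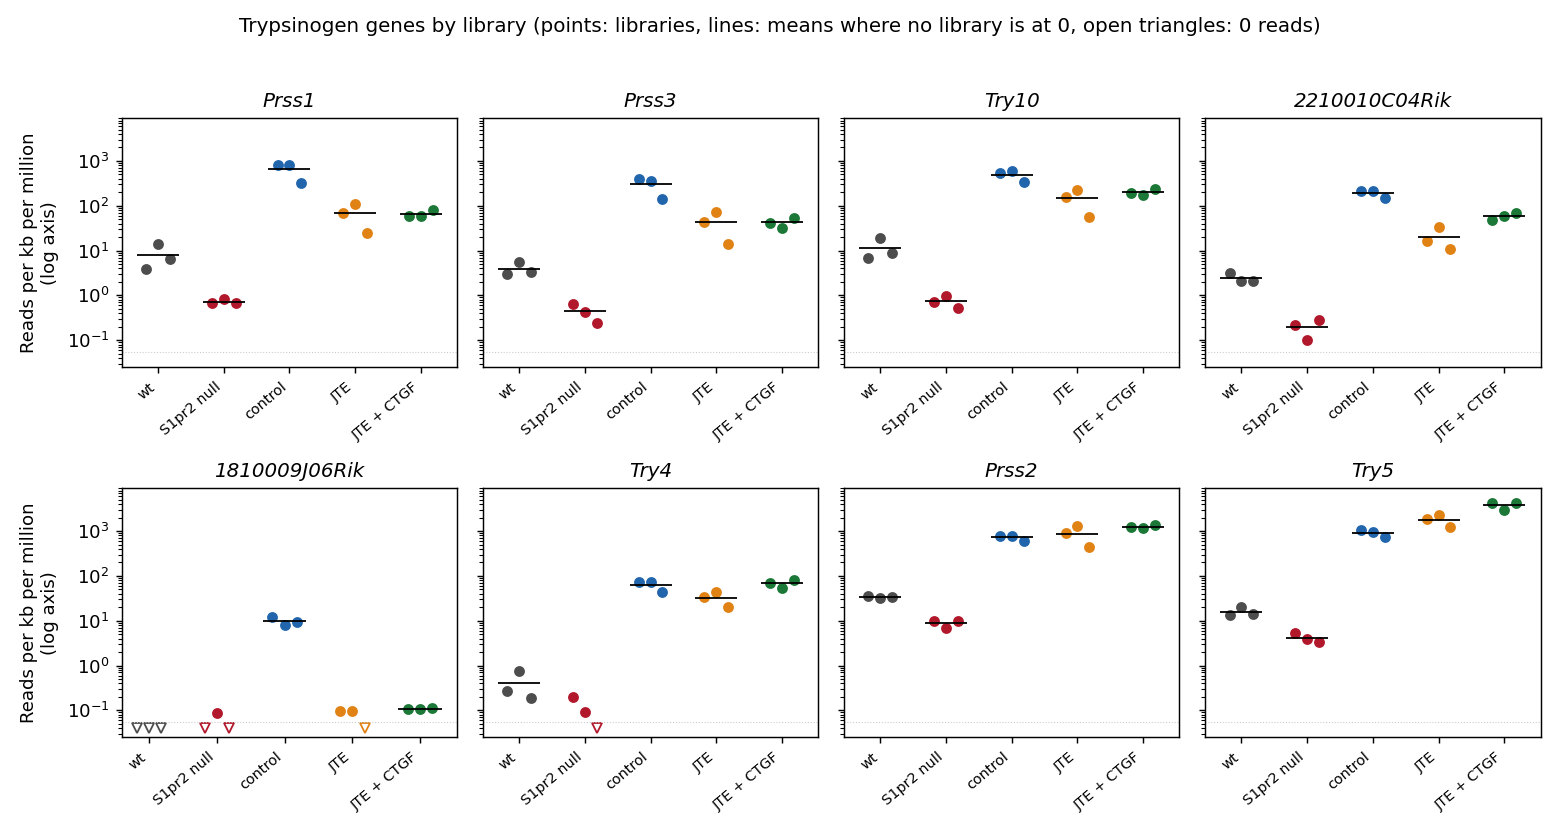
RPKM of each trypsinogen gene in each library on a log axis, with the 5 groups along the horizontal axis. Points are libraries, lines are group means where no library is at 0, and open triangles are libraries with 0 reads. Prss1 runs from 323 to 827 in control and from 24.1 to 111 in JTE explants, whereas Prss2 overlaps between them and Try5 lies between 1250 and 2277 in JTE against 757 to 1054 in control.

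The fresh pancreata were compared to ask what the loss of S1pr2 does at 14.5 dpc. Of the 8 genes, 5 were lower in the libraries labelled S1pr2 null, 0 were higher and 3 did not pass (edgeR adjusted p below 0.05), where 13.3% of all genes were called lower and 12.6% higher. Under the criterion of the study (edgeR adjusted p at most 0.1, a mean of more than 100 normalised reads in wt or in null, and a fold below 0.6) 3 members were lower, against 1.69% of all genes. In 6 members all 3 null libraries were lower than all 3 wt libraries and in 0 they were higher, as in 23.8% and 22.5% of all genes. The median over the 7 members with a fold was −3.16 on the log2 scale, against −0.012 over all genes tested.

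Prss2, the most abundant member at this stage, gave 398, 339 and 368 reads in wt and 104, 78 and 122 in the null libraries. The groups were well apart, and the log2 change came to −1.89 ± 0.33 (SE; edgeR adjusted p = 5.21e-04). Here and below, SE of a fold change is its absolute log2 value divided by the square root of the F statistic of the test. Try5 followed with 171, 237 and 169 reads against 61, 47 and 44, a log2 change of −1.95 ± 0.32 (edgeR adjusted p = 2.87e-04). These were the smallest of the folds that passed. Try10 fell from 87, 220 and 105 reads to 8, 12 and 7, a change of −3.95 ± 0.92 (edgeR adjusted p = 0.00431). 2210010C04Rik fell from 97, 58 and 61 to 6, 3 and 9 reads, a change of −3.58 ± 0.85 (edgeR adjusted p = 0.00499). Both were separate between the groups by a wide margin, and 2210010C04Rik shares no transcript word with any other gene.

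Prss1, which shares its symbol with the human gene of cationic trypsinogen, gave 44, 148 and 69 reads in wt and 7, 9 and 8 in the null libraries. Its log2 change was −3.46 ± 1.15 (edgeR adjusted p = 0.035). The high value of wt library 2 carried part of this. Without that library the change was −2.81 (edgeR adjusted p = 0.164). Without any 1 of the 3 null libraries the edgeR adjusted p lay between 0.0801 and 0.0925. With no library of either group left out, Prss1 also passed with only the 6 fresh libraries in the fit, with DESeq2 and with no filter. Prss3 gave 35, 61 and 38 reads against 7, 5 and 3, and its change of −3.16 ± 1.44 did not pass (edgeR adjusted p = 0.12), although the libraries did not overlap. With only the 6 fresh libraries in the fit it did (edgeR adjusted p = 1.47e-05). Try4 had 13 reads in all wt libraries together and 3 in the null libraries, a ratio of 4.43 (95% exact interval 1.22 to 24.2, counting error only). 1810009J06Rik had 0 reads in wt and 1 in the null group, both under the floor of 3 reads, so it was not detectable at this depth in fresh pancreata.

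Culture for 2 days was set beside the fresh tissue as the background of the treatments, and here culture, age and the dorsal bud cannot be told apart. All 8 members were higher in control explants than in wt pancreata and all 8 were separate in every library, where 28.5% of all genes were called higher, 29.3% lower, and 30.7% and 33.1% were separate in these directions. The median was 6.26 over the 8 members, and 6.26 also with 1810009J06Rik at its bound. The smallest rise was that of Prss2, with 4.43 ± 0.28 (SE, edgeR), from 33.5 ± 1.66 to 722 ± 115 RPKM (SD, n = 3 each). Try4 rose the most among members with reads in wt, by 7.27 ± 0.45, from 13 reads in all to 702, 738 and 421 reads. Without wt library 2 that change was 8.05, and that of Prss1, 6.34 ± 0.51 with all libraries, was 6.99. 1810009J06Rik went from 0 reads to 121, 85 and 96, at least 112-fold higher against a floor of 3 reads over the group.

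The JTE libraries were set against control to ask what block of S1pr2 does to the explants. Of the 8 members 6 were lower, 1 was higher and 1 did not pass, where 26.2% of all genes were called lower and 25.9% higher (edgeR adjusted p below 0.05). In 5 members every JTE library was below every control library, and in 1 every JTE library was above, against 28.3% and 28.4% of all genes. The median log2 fold change was −2.27 over the members and 0 over all genes tested, and the members spread widely around it.

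Prss1 and Prss3, 96.3% identical in their coding bases, fell together. Prss1 gave 7723, 8308 and 3130 reads in control and 673, 1094 and 262 in JTE explants, a log2 change of −3.26 ± 0.40 (SE), with an edgeR adjusted p of 4.09e-06. Prss3 gave 3867, 3844 and 1464 reads against 435, 756 and 160, a change of −2.79 ± 0.39 (edgeR adjusted p = 1.54e-05). In both, the control libraries lay above all JTE libraries, with library 3 the lowest on each side. Without JTE library 2 the change of Prss3 was −3.40. 2210010C04Rik, the more distant copy, fell as far, from 5510, 5711 and 3837 reads to 418, 884 and 307 (−3.26 ± 0.27, edgeR adjusted p = 5.05e-08).

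1810009J06Rik was all but lost, with 121, 85 and 96 reads in control and 1, 1 and 0 in JTE explants. The ratio of control to JTE was 156 (95% exact interval 42.9 to 1297, counting error only). Try10 fell less, from 5818, 6510 and 3589 reads to 1671, 2486 and 680 (−1.74 ± 0.34, edgeR adjusted p = 3.57e-04). Try4 fell by 0.96 ± 0.23 on the log2 scale (edgeR adjusted p = 0.00186), from 702, 738 and 421 reads to 323, 434 and 222, and its groups overlapped.

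Try5 went the other way. Its reads rose from 11234, 10635 and 8223 in control to 20262, 25239 and 15209 in JTE explants, every JTE library above every control library, a change of 0.98 ± 0.19 on the log2 scale (edgeR adjusted p = 3.73e-04). Try4, its closest relative at 97.4% identity, was the one that fell the least among the 6. Prss2 gave 7548, 8069 and 5785 reads against 8708, 12698 and 4867, and its change of 0.27 ± 0.23 did not pass (edgeR adjusted p = 0.347). This rested on single libraries. Without JTE library 3 it was 0.59 (edgeR adjusted p = 0.00102), and without JTE library 2 it was −0.10 (edgeR adjusted p = 0.7).

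**Figure D3:**
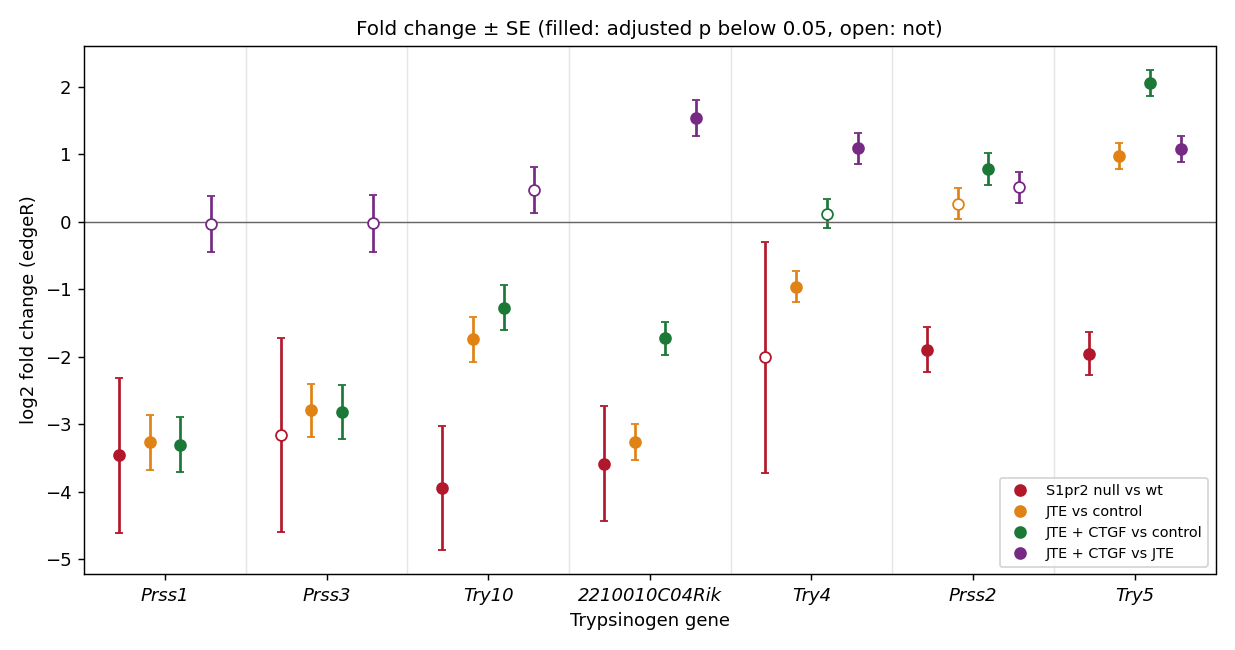
Log2 fold change for 7 trypsinogen genes in 4 comparisons, fitted with edgeR over all genes. Bars are the SE, taken as the absolute log2 change over the square root of the F statistic. Filled points have an adjusted p below 0.05 and open points do not. 1810009J06Rik is left out because it is at or under 3 reads in 4 of the 5 groups. In JTE against control the points run from −3.26 (Prss1 and 2210010C04Rik) to 0.98 (Try5).

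CTGF was added to JTE to ask what it restores in the blocked explants. Against JTE alone, 3 members were higher, 0 were lower and 5 did not pass, where 13.6% of all genes were called higher and 16.8% lower. In 4 members every JTE + CTGF library was above every JTE library, as in 19.6% of all genes, and in 0 every one was below, as in 20.6%. Among these 4 was 1810009J06Rik, which had at most 1 read in each of these libraries, so its separation is not resolved. The median over the 7 members with a fold was 0.51, against −0.002 over all genes tested.

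2210010C04Rik rose from 418, 884 and 307 reads in JTE to 1128, 1392 and 1545 in JTE + CTGF explants, which was 1.54 ± 0.27 on the log2 scale (SE), with an edgeR adjusted p of 3.94e-04. Try4 rose from 323, 434 and 222 to 623, 483 and 701 reads (1.09 ± 0.23, edgeR adjusted p = 0.00178). Try5 rose again, from 20262, 25239 and 15209 to 41911, 28613 and 41091 reads (1.08 ± 0.19, edgeR adjusted p = 4.2e-04). In these 3 genes the groups did not overlap. Prss1, with 532, 527 and 674 reads in JTE + CTGF, changed by −0.04 ± 0.41, and Prss3, with 374, 302 and 485, by −0.03 ± 0.43. Neither passed (edgeR adjusted p = 0.957 and 0.972), and the direction of both turned when single libraries were left out. Prss2, with 10947, 10274 and 11650 reads, changed by 0.51 ± 0.23 (edgeR adjusted p = 0.105), which without JTE library 2 was 0.89 (edgeR adjusted p = 0.0045). Try10, with 1905, 1705 and 2265 reads, changed by 0.47 ± 0.34 (edgeR adjusted p = 0.322). 1810009J06Rik had 3 reads in all, against 2, so no fold is given.

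Set against control, whose libraries also served for JTE, the JTE + CTGF explants had 5 members lower, 2 higher and 1 that did not pass, where 33% of all genes were called lower and 28.1% higher. The 5 lower and 2 higher members were also separate in every library, as were 34.4% and 30.4% of all genes. The median was −1.5, against −0.032 over all genes. Prss1 stood at −3.30 ± 0.41, Prss3 at −2.82 ± 0.40, 2210010C04Rik at −1.73 ± 0.25 and Try10 at −1.27 ± 0.33, all past the threshold (edgeR adjusted p = 2.5e-06, 1.07e-05, 1.44e-05 and 0.00316). These 4 genes thus remained below control with CTGF present. 1810009J06Rik remained at 1, 1 and 1 reads, and its level in control was 90.1 times higher (95% exact interval 30.5 to 439, counting error only). Try4 was at 0.12 ± 0.22 and did not pass (edgeR adjusted p = 0.647). The higher members were Try5, at 2.05 ± 0.20, and Prss2, at 0.78 ± 0.23 (edgeR adjusted p = 1.38e-07 and 0.00768).

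These changes altered the make-up of the family. In wt pancreata Prss2 held the largest share of the summed RPKM, 45.4% ± 9.99 (SD, n = 3), ahead of Try5 with 20.8% ± 0.62, Try10 with 14.6% ± 5.06 and Prss1 with 10.1% ± 4.62. The null libraries kept this order for the leading pair, with 58.6% ± 7.40 for Prss2 and 26.7% ± 4.35 for Try5. Control explants were the most even, with Try5 at 28.0% ± 3.81, Prss2 at 22.0% ± 2.69, Prss1 at 18.8% ± 4.37 and Try10 at 14.6% ± 0.66. Try5 exceeded Prss2 in each control library. In JTE explants Try5 alone held 62.0% ± 6.23 and in JTE + CTGF explants 69.1% ± 3.39, while Prss1 fell to 2.11% ± 0.72 and 1.22% ± 0.17. Shares depend on the length used for each gene. With length counted only over words found at 1 gene, Prss2 held 31.8% in wt and 43.8% in the null group, and Try5 held 69.7% in JTE and 76.1% in JTE + CTGF.

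**Figure D4:**
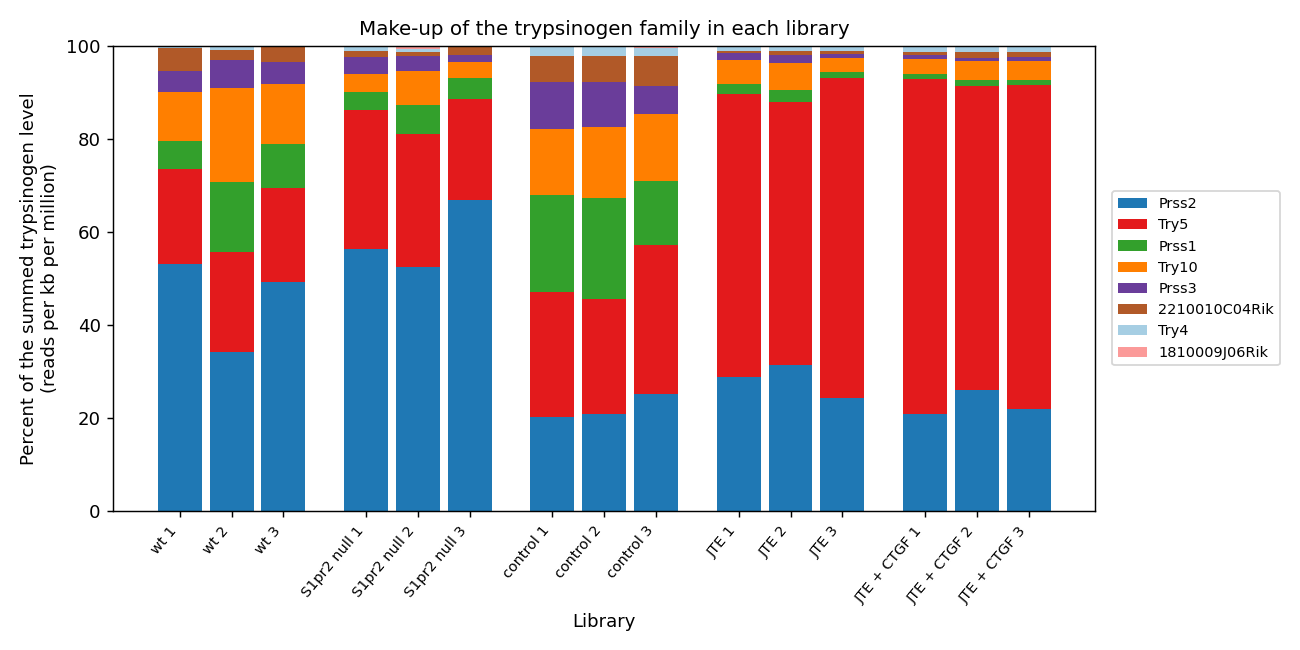
Percent of the summed RPKM of the 8 trypsinogen genes that each gene holds, stacked to 100% for each of the 15 libraries. Prss2 is the widest band in the 6 fresh libraries and Try5 in the 9 cultured ones, where it reaches 56.5% to 72.1% in the libraries with JTE.

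The response to JTE in culture and the difference between the null and wt pancreata were compared by a contrast of both, JTE minus control less null minus wt, for each gene. Try5 differed by 2.93 ± 0.37 (SE, edgeR adjusted p = 9.67e-06), being lower in the null libraries and higher in JTE explants. Prss2 differed by 2.16 ± 0.41 (edgeR adjusted p = 4.29e-04). Called differences above 0 made up 21.5% of all genes, as did those below 0. Among the other members 1810009J06Rik alone passed, in the direction of a lower value with JTE, but it had at most 1 read in every fresh library. Try10 differed by 2.21 ± 1.10 and did not pass (edgeR adjusted p = 0.116), nor did Prss1, Prss3, Try4 and 2210010C04Rik. The fresh and cultured comparisons differ in tissue age and culture as well, which cannot be told apart from the agent.

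The other trypsin-like genes of the cluster were read beside the members. Gm10334, 99.1% identical with Prss3, changed by −2.12 ± 0.38 (SE) in JTE against control (edgeR adjusted p = 1.85e-04). Gm2663, 99.5% identical with 1810009J06Rik, gave 765, 498 and 647 reads in control and 1, 7 and 5 in JTE explants, a ratio of 152 (95% exact interval 88.8 to 286, counting error only). Its change was thus of the same order as that of 1810009J06Rik. Gm5771, 98.0% identical with Prss1, changed by −1.64 ± 0.24 and Gm4744 by −3.30 ± 0.38 (edgeR adjusted p = 2.6e-05 and 4.2e-06). Gm5409, annotated as an unprocessed pseudogene, did not pass with 0.73 ± 0.35 (edgeR adjusted p = 0.0906) and was higher with JTE + CTGF, at 2.12 ± 0.32 over control (edgeR adjusted p = 4.07e-05). Prss58 had at most 1 read in a group and was not tested. In all, 5 of these 6 genes were tested, of which 4 were lower with JTE (26.2% of all genes), and 1 was higher (28.1%) and 4 lower (33%) with JTE + CTGF as compared to control. In null against wt 0 passed (edgeR, 13.3% of all genes lower), but 3 were lower in every null library, namely Gm10334 (−4.18 ± 1.89, edgeR adjusted p = 0.116), Gm5771 (−3.26 ± 1.18, edgeR adjusted p = 0.0505) and Gm2663 (−2.46 ± 0.98, edgeR adjusted p = 0.0758).

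Genes that activate or restrain trypsin were read from a list of 16, of which 14 were tested, and the share of all genes called in the same direction follows each count. In null against wt 7 were lower (13.3% of all genes) and 1 was higher (12.6%), with a median of −0.16. Spink1, the trypsin inhibitor of the acinar granule, fell by 2.15 ± 0.20 and Serpini2, a serpin of the exocrine pancreas, by 2.20 ± 0.30 on the log2 scale (edgeR adjusted p = 1.6e-06 and 5.4e-05). Ctrc, a chymotrypsin that degrades trypsinogen, went from 83.01 ± 54.6 normalised reads in wt to 0.888 ± 0.845 in the null group, where counts were at the floor. Serpina1e, an antitrypsin, rose by 0.59 ± 0.11 (edgeR adjusted p = 0.0011). With JTE 5 were lower (26.2%) and 1 was higher (25.9%), with a median of −0.35, among them Ctrc (−4.36 ± 0.99, from 139 ± 153 to 6.76 ± 3.27 normalised reads, SD, n = 3, with libraries that overlapped), Spink1 (−1.20 ± 0.18), Serpina1b (−0.80 ± 0.24) and, as the one that rose, Ctsl, a lysosomal protease, with 0.47 ± 0.07. With JTE + CTGF as compared to JTE 6 were higher (13.6%) and 1 was lower (16.8%), with a median of 0.28. Spink1 rose by 0.63 ± 0.18, Spint1 by 0.33 ± 0.07 and Spint2 by 0.29 ± 0.10, and F2rl1, a receptor that trypsin cleaves, fell by 0.46 ± 0.11. Against control, JTE + CTGF explants had 4 higher (28.1%) and 3 lower (33%), with a median of −0.05, including Ctrc (−4.02 ± 0.98), F2rl1 (−0.85 ± 0.11), Ctsl (0.66 ± 0.07) and Spink1 (−0.56 ± 0.17). In control explants 8 were higher than in wt (28.5%) and 5 lower (29.3%), with a median of 0.73, and the furthest of the latter were Serpina1e (−5.81 ± 0.21) and Serpina1c (−5.61 ± 0.18). Tmprss15, which encodes enteropeptidase, had at most 3 reads in any library.

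Of 19 other secreted digestive enzymes 17 were tested, among them Ctrc, which was also in the list above. Ctrc had the furthest fold of these in null, at the floor of counts (−6.33 ± 1.44), and with JTE (−4.36 ± 0.99). In the null libraries 12 were lower and 0 higher, with a median of −1.96, where 13.3% and 12.6% of all genes were called in these directions. Cpb1, a carboxypeptidase, changed by −3.24 ± 0.79, Cela3b, an elastase, by −3.13 ± 0.84, and Amy2b, an amylase, by −3.02 ± 0.51 on the log2 scale (edgeR adjusted p = 0.0059, 0.011 and 3.7e-04). With JTE 6 were lower (26.2% of all genes), 1 was higher (25.9%) and 10 did not pass, with a median of −0.33. Cpb1 (−3.28 ± 0.36), Rnase1 (−2.47 ± 0.20), a secreted ribonuclease, and Ctrl (−2.15 ± 0.47), a chymotrypsin, were lower, and the lipase Pnliprp2 was higher (0.85 ± 0.23). With JTE + CTGF 4 were higher than in JTE (13.6% of all genes) and 1 was lower (16.8%), with a median of 0.42, and with Rnase1 (1.54 ± 0.21), Cela2a (1.04 ± 0.35) and Cpb1 (1.02 ± 0.38) among the former and Amy2b (−1.14 ± 0.33) as the latter. As compared to control, JTE + CTGF explants had 4 higher and 6 lower (median −0.05), counts near the 28.1% and 33% of all genes, with Cpb1 at −2.25 ± 0.34, Ctrl at −1.96 ± 0.47 and Amy2b at −1.5 ± 0.33. In control explants 16 of the 17 were higher than in wt (28.5% of all genes) and 0 lower (29.3%), with a median of 3.23 and Rnase1 the furthest at 7.5 ± 0.34.

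A list of 11 transcription factors was drawn up for acinar cells, but some, such as Mnx1 and Prox1, are not particular to them. Of these 11, 8 were lower and 0 higher in the null libraries (median −0.69). The shares of all genes called in these directions were 13.3% and 12.6%. Bhlha15, which promotes the secretory state of acinar cells, fell by 1.86 ± 0.21 and Rbpjl, a partner of Ptf1a in the acinar complex, by 1.48 ± 0.27 on the log2 scale (edgeR adjusted p = 9.4e-06 and 7.3e-04). Rbpj changed by −0.93 ± 0.10, Ptf1a by −0.89 ± 0.20 and Nr5a2 by −0.26 ± 0.09, all past the threshold. In JTE explants 1 factor was higher (25.9% of all genes) and 2 were lower (26.2%). Ptf1a rose by 0.83 ± 0.18 (edgeR adjusted p = 7.9e-04) and Mnx1 and Xbp1 fell by 1.23 ± 0.14 and 0.36 ± 0.10, whereas Bhlha15 (0.37 ± 0.19), Rbpjl (0.32 ± 0.26) and Nr5a2 (0.07 ± 0.09) did not pass. With JTE + CTGF as compared to JTE 2 rose (13.6% of all genes) and 4 fell (16.8%), with a median of −0.07, and with Xbp1 at 0.60 ± 0.10, Rbpj at 0.52 ± 0.12, Mnx1 at −0.62 ± 0.17 and Nr5a2 at −0.57 ± 0.10. As compared to control, JTE + CTGF explants had 3 higher and 3 lower (median −0.10), near the 28.1% and 33% of all genes, with Mnx1 at −1.85 ± 0.15 and Ptf1a at 1.15 ± 0.18. Control explants had 3 higher and 3 lower than wt (median 0.15), near the 28.5% and 29.3% of all genes. Ptf1a was thus lower in the null libraries, where 5 trypsinogens were lower, and higher in JTE explants, where 6 trypsinogens were lower.

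Markers of the cells in the tissue were read beside the trypsinogens, and their part in the results was not tested. The 6 acinar markers summed to 4915 to 8828 CPM in wt and 1714 to 1841 in the null libraries, and to 40930 to 54760, 42450 to 75940 and 78570 to 88560 in control, JTE and JTE + CTGF explants. The 5 epithelial markers were at 1691 to 1865 and 1204 to 1264 in the fresh groups, and at 2489 to 2919, 1637 to 2058 and 1792 to 1976 in the cultured groups. The 5 endocrine markers were at 1476 to 1702 in wt and 641 to 796 in null, and at 4326 to 4889, 788 to 1062 and 864 to 1364 in control, JTE and JTE + CTGF explants. The 4 leukocyte markers were at 78.7 to 83.5 and 79.7 to 86.5 in the fresh groups and at 255 to 302, 118 to 154 and 116 to 157 in the cultured ones. The 4 erythroid markers were at 430 to 482 in wt and 274 to 379 in null, and at 4.65 to 11.6, 6.84 to 14.3 and 41.01 to 81.5 in control, JTE and JTE + CTGF explants. The 4 duct markers were at 416 to 441 in control, 256 to 316 in JTE and 243 to 273 in JTE + CTGF explants. The 4 endothelial markers were at 399 to 408 in wt and 411 to 416 in null. In control, JTE and JTE + CTGF explants they were at 365 to 447, 273 to 307 and 242 to 287. The 5 mesenchymal markers were at 8283 to 8397 in wt and 6548 to 7729 in null. In the cultured groups they were at 8077 to 8534, 8532 to 10380 and 9387 to 9920. Epithelial and endocrine sums and, in culture, leukocyte, duct and endothelial sums were thus lower in the groups in which most trypsinogens were lower. Acinar, erythroid and mesenchymal sums were lower in null but not in JTE explants.

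All 6 gut epithelium markers together, for gut tissue that a dissection could hold, were at 16.3 to 21.1 in wt, 10.7 to 11.6 in null, 33.7 to 38.0 in control, and 5.49 to 9.03 and 5.10 to 6.66 in the groups with JTE. Most of this was Vil1, with 337, 335 and 295 reads in control and 51, 74 and 47 in JTE explants. Cdx2 had 2, 2 and 0 reads in control and 7, 2 and 3 in JTE, and Muc2 had 2, 1 and 1 against 10, 5 and 1, with at most 7 reads of Cdx2 and 6 of Cdx1 in any library. The 4 T cell markers, read because the cluster lies in the T cell receptor beta locus, summed to 8.97 to 14.1 in all groups, but their members moved apart. Lck made up most of the sum and was higher in JTE and JTE + CTGF than in control (0.74 ± 0.16 and 0.76 ± 0.16, edgeR adjusted p = 7.78e-04 and 5.16e-04). Cd3e, with 34, 48 and 31 reads in wt, 15, 12 and 8 in null, 26, 34 and 25 in control and 5, 10 and 2 in JTE, was lower in null (−1.71 ± 0.37), JTE (−2.34 ± 0.44) and JTE + CTGF (−2.52 ± 0.47), every library apart (edgeR adjusted p = 0.0028, 2.84e-04 and 1.88e-04). Cd3d had 0 reads in the null and the control libraries.

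The genes whose log2 CPM followed each member most closely over the 15 libraries are given as a description, in which the libraries share their groups. Outside the family the highest Pearson coefficient was with Gm10334 for Prss1 (0.99) and Prss3 (0.993), with Tm4sf4 for Prss2 (0.996), with Eif2ak3 for Try4 (0.995), with Hsd17b13 for Try5 (0.996), with 5330417C22Rik for Try10 (0.995), with Wfdc18 for 1810009J06Rik (0.987) and with Rnase4 for 2210010C04Rik (0.989). Within the family the closest pairs were Prss1 with Prss3 (0.996) and Prss2 with Try5 (0.992). The least alike were Try5 and 1810009J06Rik (0.354). These coefficients carry the rise from fresh to cultured tissue that all members share. Over the 9 cultured libraries Prss1 and Prss3 were still the closest pair (0.995), followed by Prss3 with Try10 (0.959), while Prss2 with Try5 was at 0.81. Over the same libraries Try5 ran against Prss1 (−0.604) and 1810009J06Rik (−0.756).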

How the data were processed

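Poly(A) RNA of embryonic mouse pancreas was sequenced from 15 strand-specific libraries, 3 in each of 5 groups, which were taken from the sample titles. The authors aligned single-end reads to mm10 with GSNAP and Ensembl 69 splice sites, and deposited raw read counts per Ensembl gene of uniquely aligned reads, made with featureCounts 1.4.6. The strand setting of the counting was not stated. The deposited gene lengths were used for RPKM, reads per kilobase and 1000000 reads of effective library size. Symbols came from GENCODE M21 and were found for 24750 of 25292 IDs (97.9%).

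The members and gene lists were chosen with earlier results of these data known. All 8 members were named, and of each further list up to 4 genes per comparison with the largest fold past an adjusted p of 0.05, with Ptf1a, Rbpjl, Bhlha15 and Nr5a2. Total counts ran from 11402804 to 13828737 reads per library, so that a gene with a few reads is not resolved, while the intervals given cover the error of counting alone. The test of these counts was the quasi-likelihood test of edgeR 4.0.16 in R 4.3.3 (TMM factors, filterByExpr, 1 coefficient per group, all 15 libraries, Benjamini-Hochberg adjustment over 16245 genes). A separate edgeR fit of the same kind was run on simulated counts. These had a biological coefficient of variation of 7.3% for every gene, so the run does not bear on members that vary more. The SE of a fold change was worked back from this test, as the absolute log2 change over the square root of its F statistic. Where libraries may share a culture or litter, p-values measure only the spread between these libraries. Alternatives were RLE factors, DESeq2 1.42.0, no filter, the 6 libraries compared, the replicate number as a block, the criterion of the study (adjusted p at most 0.1, mean normalised count above 100 in 1 of the groups or both, fold change below 0.6 or above 1.6), each library left out, and other lengths. The last was added for the summed level after the data were seen. Words were counted in the GENCODE M21 transcripts, and promoters came from RefSeq. With 3 libraries against 3 an exact permutation test cannot go below 0.1 and was not used.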

Additional observations from a re-analysis of the deposited data

Results flagged for a closer look

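The responses of Try5 and Prss2 to JTE in explants and to the label S1pr2 null in fresh pancreata differed. These were 2 of the 8 members, a share near the 21.5% of all genes with a called difference above 0. For Try5 the difference between both responses was 2.93 ± 0.37 on the log2 scale (SE, edgeR adjusted p = 9.67e-06), from −1.95 in null against wt and 0.98 in JTE against control. For Prss2 the difference was 2.16 ± 0.41 (SE, edgeR adjusted p = 4.29e-04), from −1.89 and 0.27. Both are the members with the most reads in fresh pancreata. Culture, tissue age and the agent cannot be told apart in this contrast.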

How the results depend on the processing

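Of 217 fold changes of single members recomputed under other settings than leaving out a library, 208 kept their direction and side of the threshold, 6 came to pass it and 3 turned direction. Of 675 recomputed without 1 library, 653 kept both, 4 no longer passed, 4 came to pass and 14 turned. Each of the 15 libraries was left out in turn, also those of groups outside a comparison, whose removal leaves its fold almost unchanged. The 653 of 675 is therefore no measure of stability within a comparison. Under the criterion of the study 3 members instead of 5 were lower in null against wt. With 1 library left out, the members called higher with JTE were 1 to 2 (2 without JTE library 3, where Prss2 passed with 0.587), those with a difference of responses below 0 were 0 to 1 (0 without S1pr2 null library 2), and the median difference of responses was 0.437 to 1.917 (main 1.04, and 1.917 without S1pr2 null library 1).

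Prss3 in null against wt passed with DESeq2 (adjusted p = 6.66e-05), with no filter (edgeR adjusted p = 0.00573) and without JTE library 3 (edgeR adjusted p = 0.0467). Prss2 in JTE + CTGF against JTE passed with no filter (0.54, edgeR adjusted p = 0.00367), and Try10 in the difference of responses with DESeq2 (adjusted p = 0.0146), with no filter (edgeR adjusted p = 0.0077) and without JTE library 3 (edgeR adjusted p = 0.00802). The cause was not tested.

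With 1 library left out, Prss2 with JTE was −0.104 (without JTE library 2) to 0.587 and Try4 in JTE + CTGF against control was −0.092 to 0.265, turning without control library 3 and JTE + CTGF library 3. In JTE + CTGF against JTE, Prss1 was −0.415 to 0.502 and Prss3 was −0.423 to 0.581, both turning without JTE library 2 and JTE + CTGF libraries 1 and 2, and Prss3 was 0.004 with no filter. In the difference of responses, Prss1 was −0.452 to 0.609, turning without wt library 2, control library 3 and JTE library 2. Without the last, Prss3, with −0.243 to 0.802, and 2210010C04Rik, with −0.258 to 0.667, turned too.

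With the replicate number as a block, the counts of members called were as without it (5 lower in null against wt, 1 higher and 6 lower with JTE), and the fold changes of Prss1 and Prss3 in JTE + CTGF against JTE turned to 0.159 and 0.155 without passing. Deviations of libraries with the same number correlated by −0.11 to 0.25 (median −0.01), and those with other numbers by −0.24 to 0.16 (median 0.01). The medians thus show no pairing by number, and whether libraries share a litter or culture was not tested.

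With length counted over words found at 1 gene, the summed levels were 128 in wt, 23.9 in null, 6559 in control, 5358 in JTE and 10090 in JTE + CTGF, and the largest shares were 31.8% (wt, Prss2), 43.8% (null, Prss2), 69.65% (JTE, Try5) and 76.1% (JTE + CTGF, Try5). Depth limits 1810009J06Rik and Try4 in fresh pancreata, which had at most 1 and 8 reads in a library.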
